A study of Mus musculus with 30 samples.

Results

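The comparison described here set 3 calcaneus libraries from mice whose muscle had been stimulated by light for 12 days against 3 calcaneus libraries from unstimulated controls of the same day, 6 of the 30 samples of the series. The members were chosen by their titles, and no measured value entered that choice. All samples, the controls included, carry the genotype labelled Acta1,Ai32. As background, Acta1 is the skeletal muscle actin gene, whose promoter is widely used to drive Cre recombinase in muscle fibres, and Ai32 is a reporter allele that yields a light-gated channel fused to the yellow fluorescent protein EYFP in cells with Cre, so that light makes the muscle contract and load the tendon and the heel bone. The titles call the stimulated samples stimulated controls, while their treatment label reads 12-day stim, and they were taken as stimulated. The remaining calcaneus groups, naive at day 0 and stimulated or unstimulated at 5 days, have 3 samples each and entered the fit to estimate the spread. Age is not given in the sources used here, and the labels do not say whether replicates are separate animals.

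Mechanical load is a main regulator of bone mass. Osteocytes, the cells embedded in mineral, sense strain and release signals such as sclerostin, the product of Sost, which holds back Wnt signalling in osteoblasts, the bone-forming cells. Osteoclasts, which resorb bone, arise from the blood lineage, and the calcaneus also encloses marrow, meets cartilage at its joints and receives the Achilles tendon. A whole-bone library therefore mixes RNA from many cell types, and fewer cells of a type cannot be told apart from less RNA per cell.

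The libraries held 19255983, 24749229 and 23012880 counts in the stimulated and 22582058, 35035536 and 22083894 counts in the unstimulated group. Genes of the osteoblast list took 7.01 to 10.1% of the counts of each library. EYFP was read at 373, 587 and 561 CPM (a count scaled to a common library total) in stimulated libraries 1, 2 and 3 and at 582, 483 and 591 CPM in the unstimulated ones, and Cre at 3 to 8 counts. Among all bone libraries, naive replicate 3 stood apart on the first principal component, and results are given without it where that moved them. Marker genes of marrow and of muscle moved with the groups. Marrow genes took more of the counts in stimulated libraries 1 and 3, and muscle fibre genes in stimulated libraries 2 and 3, as the shares given below show. Their part in the results was not tested. The fits with a marrow or muscle score named below cannot decide it, since the scores come from the same libraries and moved with the groups.

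At 12 days, 7 of 18851 genes tested (0.0371%) differed between stimulated and unstimulated calcaneus at an adjusted p under 0.05 (edgeR quasi-likelihood test), and all 7 fell. They were Lgr6, a receptor for R-spondins that raises Wnt signalling, Stc2, a secreted stanniocalcin that blocks the protease PAPP-A and so the release of insulin-like growth factors, Vcan, the large matrix proteoglycan versican, Chit1, a chitinase secreted by macrophages, Sdk2, an immunoglobulin-family adhesion molecule, Ano1, a calcium-activated chloride channel, and Atp2b4, a calcium pump of the plasma membrane. The fall ranged from 1.47-fold for Atp2b4 to 4.18-fold for Chit1. No gene rose at this threshold (0%). Before adjustment, 2757 genes had p under 0.05, 1355 higher (7.19%) and 1402 lower (7.44%), and 62 genes had an adjusted p under 0.1, of which 53 were lower and 9 higher. The median log2 fold change over all genes tested was −0.01.

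**Figure D1:**
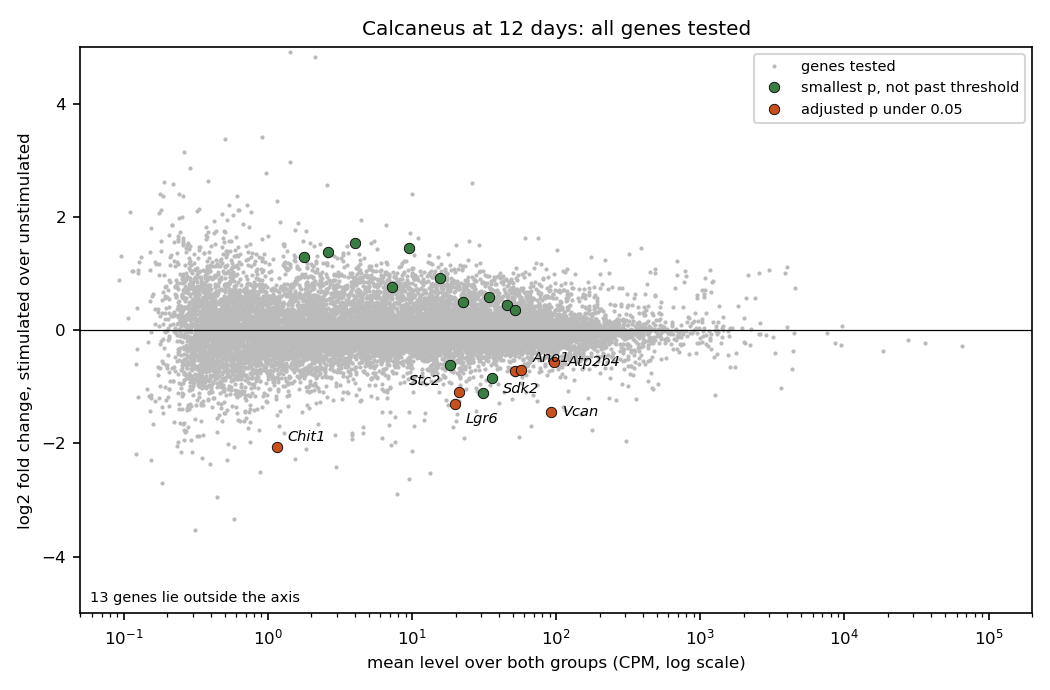
Each point is a gene tested in 12-day calcaneus. The x axis gives its mean level over both groups in CPM on a log scale and the y axis its log2 fold change, stimulated over unstimulated. The 7 genes past the adjusted threshold (orange) all lie below 0, the genes with the smallest p short of it (green) lie on both sides, and 13 genes lie outside the axis.

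The promoters of the 4 genes with the largest falls are shown for a reader who wants to look for shared regulatory letters. These genes were called lower in the same comparison, and shared regulation was not tested. The windows are RefSeq's for GRCm38.p6, from 250 bases before to 50 bases after the annotated start, in the direction of the gene. They lie at chr1:135105227-135105526 on the minus strand for Lgr6, chr11:31370012-31370311 on the minus strand for Stc2, chr13:89742463-89742762 on the minus strand for Vcan and chr1:134110992-134111291 on the plus strand for Chit1. Capitals mark any match, on either strand, to the motifs searched.
Lgr6: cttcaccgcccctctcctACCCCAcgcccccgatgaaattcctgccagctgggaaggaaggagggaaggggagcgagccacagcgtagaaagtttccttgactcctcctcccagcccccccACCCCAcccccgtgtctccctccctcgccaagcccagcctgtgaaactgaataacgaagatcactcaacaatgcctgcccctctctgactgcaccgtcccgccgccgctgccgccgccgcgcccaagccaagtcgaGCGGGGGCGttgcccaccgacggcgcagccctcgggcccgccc
Stc2: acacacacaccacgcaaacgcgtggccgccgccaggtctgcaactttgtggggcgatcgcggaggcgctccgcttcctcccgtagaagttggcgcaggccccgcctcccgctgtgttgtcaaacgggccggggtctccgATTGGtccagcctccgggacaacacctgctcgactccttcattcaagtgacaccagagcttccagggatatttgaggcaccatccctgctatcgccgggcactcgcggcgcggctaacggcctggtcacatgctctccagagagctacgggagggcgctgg
Vcan: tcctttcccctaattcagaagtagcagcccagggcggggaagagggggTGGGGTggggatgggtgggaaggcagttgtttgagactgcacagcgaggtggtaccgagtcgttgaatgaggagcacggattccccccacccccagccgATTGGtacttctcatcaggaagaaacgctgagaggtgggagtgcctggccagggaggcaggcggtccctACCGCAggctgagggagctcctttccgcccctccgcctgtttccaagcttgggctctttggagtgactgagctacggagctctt
Chit1: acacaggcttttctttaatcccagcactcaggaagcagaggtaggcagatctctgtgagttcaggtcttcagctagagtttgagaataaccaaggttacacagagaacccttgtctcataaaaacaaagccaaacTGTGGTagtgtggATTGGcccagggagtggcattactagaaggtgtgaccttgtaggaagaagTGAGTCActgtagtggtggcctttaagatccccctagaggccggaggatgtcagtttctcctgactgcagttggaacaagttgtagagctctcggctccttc
The letters searched were TATAAA for the TATA box, CCAAT for the box bound by NF-Y and TGANTCA for AP-1. For the cyclic AMP response element they were TGACGTCA, for TEAD factors GGAATG and for EGR factors GCGNGGGCG. TGNGGT was searched for RUNX factors, a form looser than their core site, since N takes any base. For the TCF and LEF partners of beta-catenin they were TCAAAG, and for the Smad factors GTCTAGAC. None of these motifs contains another. CCAAT was found in Stc2, Vcan, Chit1 and Sdk2, 4 of the 7 promoters, against 37.4% of all 32851 RefSeq promoters of that length. TGNGGT was found in Lgr6, Vcan, Chit1 and Ano1, 4 of 7, against 45.8% of all promoters. All its matches in Lgr6 and Ano1 read TGGGGT, marked as ACCCCA on the other strand, and are matches to the loose form only. GCGNGGGCG was found in Lgr6 and Ano1, against 5.55% of all promoters, TGANTCA in Chit1, against 7.81%, and GGAATG in Atp2b4, against 14.7%. The other motifs, present in 13.6% (TATAAA), 1.79% (TGACGTCA), 16.0% (TCAAAG) and 0.213% (GTCTAGAC) of all promoters, had no match in these 7 windows. A match is a run of letters and not a measured binding site, and the windows of Ano1 and Atp2b4 lie 13401 and 47294 bases from the gene start that GENCODE M21 gives.

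Lgr6 (chromosome 1, 134983301 to 135105276) had the smallest p. Its level was 12.8, 12.4 and 9.14 CPM in stimulated libraries 1, 2 and 3 and 27.4, 28.4 and 29.1 CPM in the unstimulated libraries. The groups did not overlap, and the unstimulated libraries lay within a narrow band. The log2 fold change was −1.30 ± 0.14 (SE), a 2.47-fold fall with an adjusted p of 0.0136 (edgeR). Naive calcaneus held 21.4 ± 2.57 CPM (SD, n = 3), 5-day unstimulated calcaneus 15.6 ± 1.47 CPM (n = 2, the near-identical pair summed) and 5-day stimulated calcaneus 17.8 ± 2.44 CPM (n = 3). The unstimulated 12-day libraries were thus above every other bone library and the stimulated ones below every other.

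Stc2 (chromosome 11, 31357307 to 31370074) stood at 13.3, 15.8 and 11.4 CPM in the stimulated and at 24.0, 32.2 and 29.7 CPM in the unstimulated libraries. The log2 fold change was −1.08 ± 0.15 (SE; edgeR adjusted p 0.0419). Naive calcaneus held 12.8 ± 1.69 CPM and 5-day stimulated calcaneus 15.7 ± 1.7 CPM (SD, n = 3), so that the 12-day unstimulated libraries, not the stimulated ones, stood away from the rest.

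Vcan (chromosome 13, 89655312 to 89742509) was read at 47.6, 61.7 and 37.7 CPM after stimulation and at 145, 125 and 131 CPM without it. The lowest unstimulated library was above the highest stimulated library, and the log2 fold change was −1.45 ± 0.20 (SE; edgeR adjusted p 0.0419). Naive libraries held 79.4 to 88.6 CPM, between the 12-day groups. At 5 days the stimulated libraries held 50.4 to 72.1 CPM and the unstimulated ones 82.2 and 135 CPM, a log2 fold change of −0.84 ± 0.22 (SE) with an edgeR adjusted p of 0.470.

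Chit1 (chromosome 1, 134111242 to 134151540) was the weakest expressed of the 7, with 10 counts in each stimulated library and 35, 71 and 44 counts in unstimulated libraries 1, 2 and 3. In CPM these were 0.513, 0.394 and 0.439 against 1.65, 2.0 and 1.97, without overlap. The log2 fold change was −2.06 ± 0.30 (SE; edgeR adjusted p 0.0419). Naive and 5-day libraries lay between 0.468 and 1.20 CPM, below the 12-day unstimulated libraries. Of the 14 genes of the macrophage list, 9 were above 0 and 5 below, with a median log2 fold change of 0.09 and none called.

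Sdk2 (chromosome 11, 113776374 to 114067046) was at 44.7, 40.0 and 33.2 CPM in stimulated and at 60.8, 65.1 and 67.1 CPM in unstimulated libraries, a log2 fold change of −0.71 ± 0.10 (SE; edgeR adjusted p 0.0419). Ano1 (chromosome 7, 144588549 to 144751974) was at 42.8, 49.7 and 36.3 CPM against 66.7, 70.1 and 74.0 CPM, also −0.71 ± 0.10. Atp2b4 (chromosome 1, 133699457 to 133801041) was at 78.0, 77.4 and 77.2 CPM against 114, 105 and 124 CPM, −0.56 ± 0.08. In these genes the stimulated 12-day libraries were the ones that stood away, lying below all 11 other bone libraries, as they did for Lgr6. That position was held by 157 of all 18851 genes (0.833%), and the position of Lgr6, Stc2 and Chit1, unstimulated 12-day libraries above the 11 others, by 466 genes (2.47%). The rule for calling used the same libraries, so these positions describe the genes and test nothing.

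**Figure D2:**
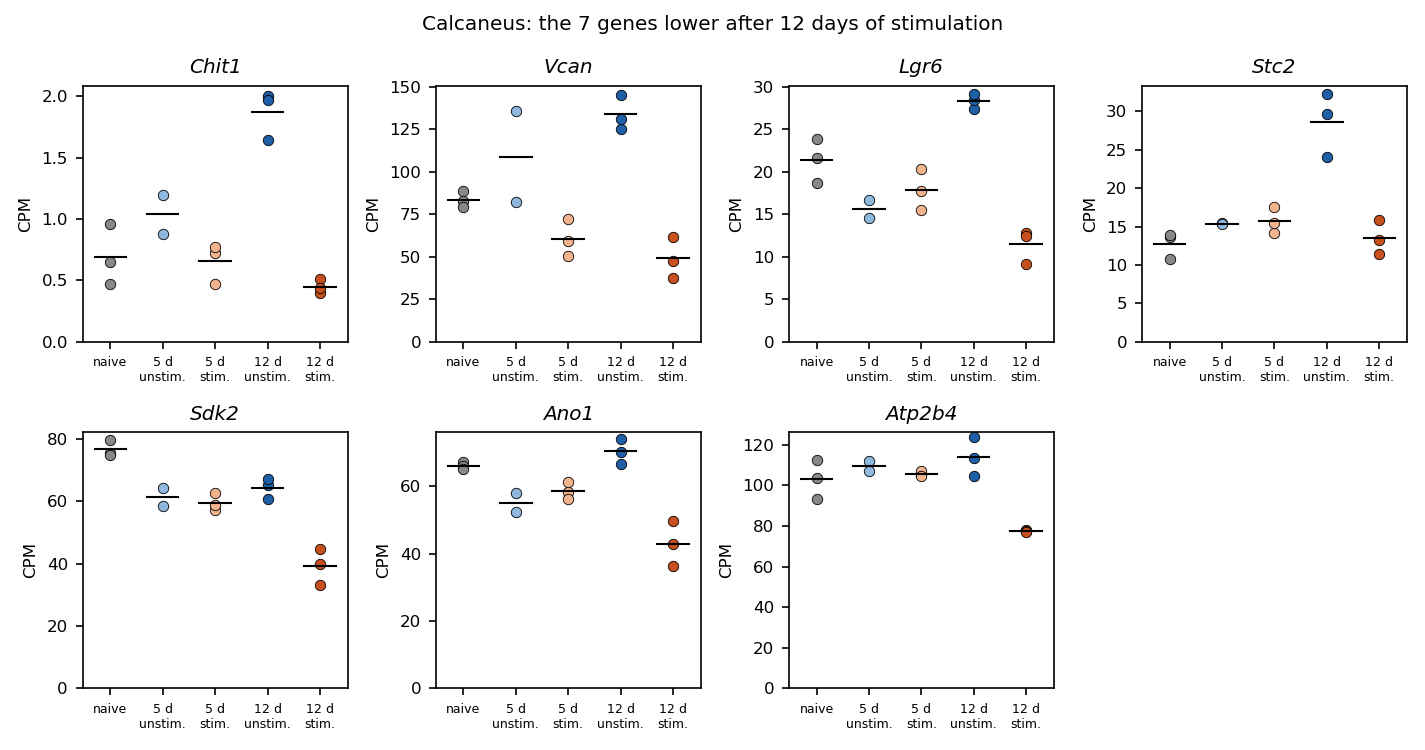
Level in CPM (y axis, from 0) of the 7 genes in each calcaneus library (points), by group (x axis), with the group mean as a bar. The 12-day stimulated libraries lie below the 12-day unstimulated ones for each gene, while the naive and 5-day libraries lie near the stimulated group for Stc2 and near the unstimulated group for Sdk2 and Atp2b4.

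Of the 7 genes, 6 kept their direction in each of the 18 other settings tried, and Chit1 in the 17 that gave it an adjusted p (DESeq2 gave none), but the calls did not hold as widely. Leaving out unstimulated replicate 1, 2 or 3 gave 0 called genes each time. Leaving out stimulated replicate 3 gave 2 called genes, 1 of them among the 7, leaving out stimulated replicate 1 gave 3, with 2 among the 7, and leaving out stimulated replicate 2 gave 7, with 4 among the 7. The fit on the 6 libraries alone called 0, a marrow score as a covariate gave 0 and a muscle score 1, and without naive replicate 3 only 1 was called, whereas DESeq2's Wald test called 427 genes (183 higher, 244 lower), 6 of the 7 among them. Lgr6 was called in 11 of the 18 settings and Chit1 in 2 of 17.

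Of the genes short of the threshold with a mean of at least 1 CPM, the lower ones with the smallest p were Kcnma1, a calcium-activated potassium channel, Scube1, a secreted glycoprotein, and Ngef, a guanine nucleotide exchange factor, each with an edgeR adjusted p of 0.0738. Kcnma1 was at 15.1, 14.9 and 13.3 CPM in stimulated and at 23.9, 20.7 and 21.5 CPM in unstimulated libraries. Scube1 was at 20.2, 24.8 and 13.5 against 35.0, 49.0 and 42.5 CPM, and Ngef at 29.9, 26.1 and 20.4 against 49.3, 41.1 and 46.6 CPM. For each of the 3, the groups did not overlap, as for 1892 genes (10%) in the lower direction.

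Among the higher genes with the smallest p, none was called. Fam110a was nearest, at 8.47, 9.58 and 9.14 CPM against 5.50, 5.51 and 5.02 CPM, a log2 fold change of 0.76 ± 0.12 (SE; edgeR adjusted p 0.0738). Galnt9, a mucin-type glycosyltransferase, had a log2 fold change of 1.39 ± 0.27, Gadd45a, a growth arrest and DNA damage gene, 0.50 ± 0.10, and Ampd3, an AMP deaminase, 0.59 ± 0.12 (SE). Prc1, which bundles microtubules in cytokinesis, had 0.92 ± 0.18, Aunip 1.3 ± 0.26, Rangap1, which drives nuclear transport, 0.45 ± 0.09, and Cdkn1c, a cyclin-dependent kinase inhibitor, 0.35 ± 0.07. Mcpt8 and Prss34, serine proteases of basophils, had 1.54 ± 0.31 and 1.46 ± 0.30. Mcpt8 stood at 7.96, 3.75 and 6.15 CPM in stimulated libraries 1, 2 and 3 against 2.16, 2.46 and 1.43 CPM, so that stimulated replicate 2 was the lowest of its group, as it was for the marrow genes below. Galnt9 and Cdkn1c were higher in the stimulated 12-day libraries than in all 11 other bone libraries, as were 47 of all genes (0.249%), whereas Fam110a, Gadd45a, Prc1, Ampd3, Mcpt8, Aunip and Rangap1 were lower in the unstimulated 12-day libraries than in the 11 others, as were 404 of all genes (2.14%). For these 10 genes the edgeR adjusted p ran from 0.0738 to 0.1, and the groups did not overlap, as for 1160 genes (6.15%) in the higher direction.

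**Figure D3:**
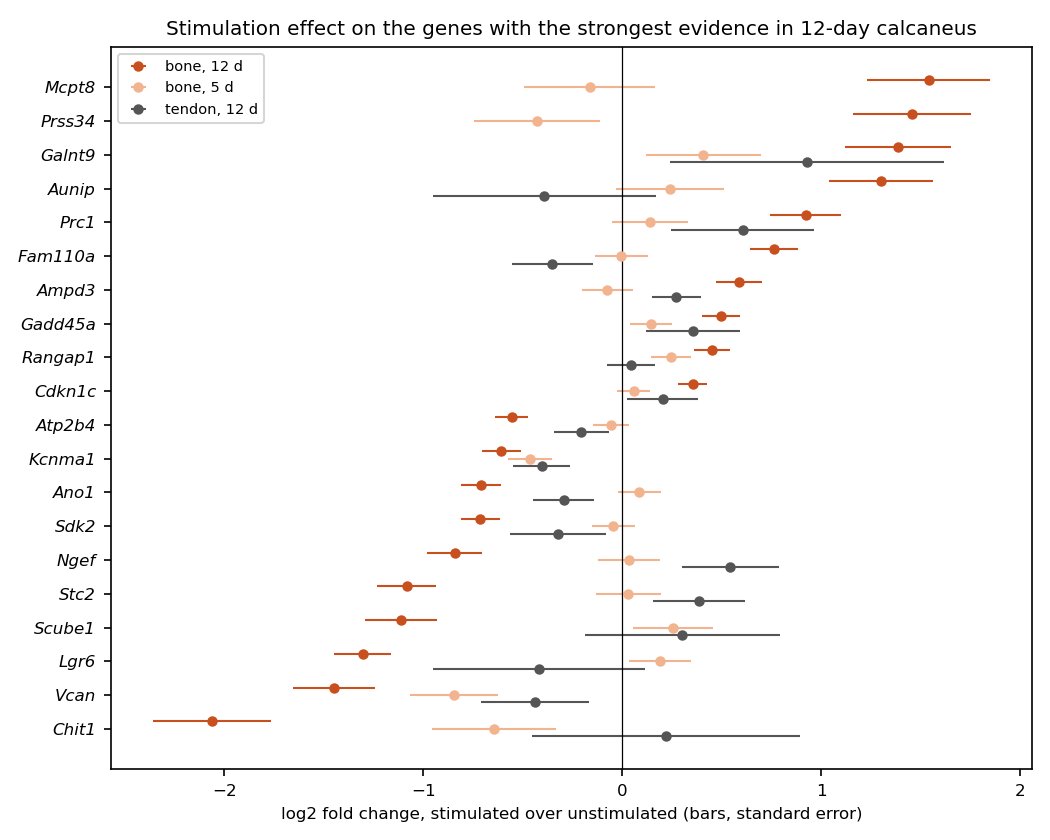
Log2 fold change, stimulated over unstimulated (x axis, points with standard errors), of the 20 genes with the smallest p at 12 days under the naming rule (y axis), in 12-day calcaneus, 5-day calcaneus and 12-day tendon. The 12-day calcaneus points chose the genes, and the 5-day points lie between −0.84 (Vcan) and 0.41 (Galnt9). Tendon values of Mcpt8 and Prss34 are not drawn, since both genes were at or near 0 there.

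Genes of bone-forming cells were not called. Of the 23 osteoblast genes, 21 were below 0 and 2 above, with a median log2 fold change of −0.23 against −0.01 over all genes, 7 without overlap on the lower side and 1 on the higher (10% and 6.15% over all genes). The median was −0.44 without stimulated replicate 1 and −0.15 without stimulated replicate 3. Bglap, which encodes osteocalcin, was at 1473, 1135 and 1141 CPM in stimulated and at 2268, 1976 and 1642 CPM in unstimulated libraries, −0.65 ± 0.19 (SE; edgeR adjusted p 0.202), without overlap. Reads of Bglap are shared with its near-identical neighbours Bglap2 and Bglap3 and its value is uncertain for that reason. Omd, a matrix proteoglycan of bone, was at 89.2, 72.6 and 77.8 against 132, 121 and 109 CPM, and Alpl, the phosphatase that starts mineralization, at 470, 389 and 294 against 522, 572 and 513 CPM. Col1a1, the main collagen chain of bone, differed by −0.17 ± 0.13 and Sp7, the osteoblast transcription factor osterix, by −0.17 ± 0.11 (SE; edgeR adjusted p 0.602 and 0.497).

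Osteocyte genes were split, with 6 above and 8 below 0 of 14 and a median of −0.06. Sost was at 27.6, 14.5 and 11.5 CPM in stimulated and at 18.4, 20.8 and 27.6 CPM in unstimulated libraries. The groups overlapped and the log2 fold change was −0.32 ± 0.35 (SE; edgeR adjusted p 0.721). Dmp1, a mineral-binding matrix protein of osteocytes, was at 188, 137 and 123 against 144, 149 and 145 CPM, 0.03 ± 0.22. In both genes stimulated replicate 1 was the highest and replicate 3 the lowest of the stimulated group. A kinase of secreted mineral-binding proteins, Fam20c, was at 66.0, 60.6 and 50.3 against 77.7, 70.0 and 76.4 CPM (edgeR adjusted p 0.230). Ackr3, a scavenging chemokine receptor, was at 64.0, 82.0 and 31.6 against 104, 96.3 and 92.3 CPM (edgeR adjusted p 0.267). These were the 2 of 14 members without overlap on the lower side, near the 10% over all genes, and 0 were without overlap on the higher side (6.15% over all genes). The highest log2 fold change of the list was 0.36.

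Osteoclast genes showed no common direction, with 11 above and 9 below 0 of 20 and a median of 0.04. Acp5, the tartrate-resistant phosphatase of osteoclasts, differed by −0.03 ± 0.22 and Ctsk, their collagen-degrading protease, by 0.14 ± 0.23 (SE). Calcr, the calcitonin receptor, was at 3.18, 1.7 and 2.72 against 1.27, 1.13 and 1.12 CPM, 1.10 ± 0.26 (SE; edgeR adjusted p 0.145). It was the 1 of 20 members without overlap on the higher side, near the 6.15% over all genes, and 0 were without overlap on the lower side. Of 14 measured signals that control osteoclasts, 10 were below 0 (median −0.17). Tnfrsf11b, which encodes the decoy receptor osteoprotegerin, was at 17.2, 17.0 and 9.36 against 28.7, 27.5 and 28.5 CPM, −0.96 ± 0.29 (SE; edgeR adjusted p 0.208), while Csf1, a growth factor of their precursors, was at 126, 116 and 97.9 against 139, 133 and 125 CPM.

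Genes of phosphate and mineral handling were below 0 in 7 of 9 measured, with a median of −0.30, 4 of them without overlap on the lower side (10% over all genes) and none called. With the marrow score as a covariate the median was −0.11. Slc20a1, a phosphate transporter, came closest, at 67.3, 71.5 and 52.0 CPM in stimulated and at 99.7, 124 and 106 CPM in unstimulated libraries, −0.79 ± 0.13 (SE; edgeR adjusted p 0.0738). Its relative Slc20a2 was at 46.5, 59.7 and 61.5 against 68.5, 82.5 and 79.8 CPM. Enpp1, which makes pyrophosphate, was at 76.0, 82.3 and 42.5 against 94.7, 91.7 and 99.97 CPM, and Ank, which moves pyrophosphate precursors out of cells, at 143, 143 and 124 against 178, 151 and 176 CPM.

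Wnt genes were below 0 in 26 of 33 measured, with a median of −0.27, 11 without overlap on the lower side, 1 on the higher (10% and 6.15% over all genes), and Lgr6 the 1 called. Without stimulated replicate 3 the median was −0.12, with 21 below 0, and with the marrow score as a covariate −0.13, with 25 below 0. Among the secreted inhibitors of the pathway, Wif1 was at 204, 153 and 147 CPM in stimulated and at 353, 303 and 248 CPM in unstimulated libraries, −0.84 ± 0.20 (SE; edgeR adjusted p 0.150). Notum, an enzyme that inactivates Wnt proteins, was at 11.9, 10.4 and 9.32 against 14.3, 15.1 and 14.2 CPM, −0.47 ± 0.10 (SE), and Apcdd1, a membrane-bound inhibitor, at 35.2, 34.3 and 34.0 against 40.5, 53.0 and 48.5 CPM, −0.46 ± 0.09 (edgeR adjusted p 0.115 and 0.0913). Wnt5a, a ligand, was at 10.9, 12.1 and 9.49 against 14.4, 14.3 and 14.0 CPM. For each of these 4 genes every stimulated library was below every unstimulated one, and none was called.

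Genes of the TGF-beta and BMP pathways, which direct matrix production and bone formation, were below 0 in 27 of 32, with a median of −0.19, 12 without overlap on the lower side, 0 on the higher (10% and 6.15% over all genes) and none called. The median was −0.12 without stimulated replicate 3 and −0.11 with the marrow score as a covariate. Ltbp2, a microfibril-associated protein, was at 43.2, 51.4 and 33.4 against 74.3, 104 and 106 CPM, −1.15 ± 0.25 (SE; edgeR adjusted p 0.115). The inhibitory Smads were lower in every stimulated library, with Smad7 at −0.39 ± 0.09 and Smad6 at −0.36 ± 0.09, and Id1, a BMP target, was at 46.9, 54.1 and 36.5 against 74.8, 58.9 and 57.5 CPM. Within the insulin-like growth factor list, 12 of 16 genes were below 0 (median −0.28, and −0.14 with the marrow score) and Stc2 was the 1 called. Its relative Stc1 was at 2.31, 1.85 and 2.02 against 3.39, 2.99 and 3.54 CPM, and the binding protein Igfbp6 at 285, 276 and 247 against 565, 375 and 342 CPM, both without overlap (edgeR adjusted p 0.221 for each).

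Cartilage genes were split, with 10 above and 11 below 0 of 21 (median −0.07). Their log2 fold changes ran from −1.15 to 1.47, with 2 members without overlap on the lower side and 0 on the higher (10% and 6.15% over all genes). The cartilage and tendon fibroblast genes named here are all from the lower side of their lists. Chad, a leucine-rich repeat protein of cartilage and bone, was at 997, 829 and 530 CPM in stimulated and at 1927, 1914 and 1399 CPM in unstimulated libraries, −1.15 ± 0.26 (SE; edgeR adjusted p 0.129). Col10a1, the collagen of hypertrophic cartilage, was at 547, 322 and 176 against 502, 789 and 729 CPM, with overlap through stimulated replicate 1. Sox9, the chondrocyte transcription factor, was at 20.5, 18.6 and 13.1 against 25.5, 22.7 and 25.5 CPM. Of 15 tendon fibroblast genes, 8 were above 0 and 7 below (median 0.10, from −1.35 to 0.93), with 2 without overlap on the lower side and 0 on the higher. Tppp3, a marker of the tendon sheath, was at 56.4, 85.4 and 47.5 against 199, 121 and 164 CPM, −1.35 ± 0.34 (SE; edgeR adjusted p 0.170).

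Genes that guide nerves and vessels were below 0 in 17 of 19 measured (median −0.31, 6 without overlap on the lower side against 10% over all genes, none called). Without stimulated replicate 3 the count was 13 of 19, with a median of −0.21. Sema3d, a repulsive semaphorin, was at 21.8, 19.9 and 16.0 against 31.3, 28.9 and 30.02 CPM, −0.65 ± 0.11, and Sema3e at 6.98, 7.92 and 4.39 against 14.1, 11.1 and 16.0 CPM, −1.09 ± 0.21 (SE; edgeR adjusted p 0.0793 and 0.0861). Hey1, a Notch target, was at 19.3, 21.7 and 18.8 against 26.5, 27.1 and 29.1 CPM, and the growth factor Fgf2 at 20.6, 19.8 and 16.7 against 33.0, 30.9 and 31.1 CPM (edgeR adjusted p 0.0802 for each). Schwann cell genes, which build the myelin of peripheral nerves, were all 10 below 0 (median −1.24), with none called and 4 without overlap (10% over all genes on the lower side). With the marrow score as a covariate the median was −0.57. The list took 0.0841, 0.0411 and 0.0430% of counts in stimulated and 0.0771, 0.127 and 0.241% in unstimulated libraries, so the groups overlapped and unstimulated replicate 3 was the highest. Mal, a myelin membrane protein, was at 16.4, 5.44 and 7.34 against 18.6, 28.0 and 62.0 CPM, with a standard error of 1.29 on a log2 fold change of −1.91.

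Adipocyte genes were below 0 in 12 of 13, with a median of −0.51, 10 without overlap on the lower side (10% over all genes) and none called. Retn, which encodes resistin, was at 24.2, 24.1 and 32.6 CPM in stimulated and at 49.9, 56.5 and 49.7 CPM in unstimulated libraries, −0.95 ± 0.27 (SE; edgeR adjusted p 0.197). The lipid droplet protein Plin4 was at 296, 359 and 317 against 445, 513 and 456 CPM, and the lipase Pnpla2 at 204, 224 and 254 against 297, 347 and 325 CPM. The list's share of counts, which a few abundant genes set, overlapped between the groups, at 0.488, 0.514 and 0.643% against 0.586, 0.692 and 0.607%. Over the 18 other settings the median of the list ran from −0.67 to −0.39.

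**Figure D4:**
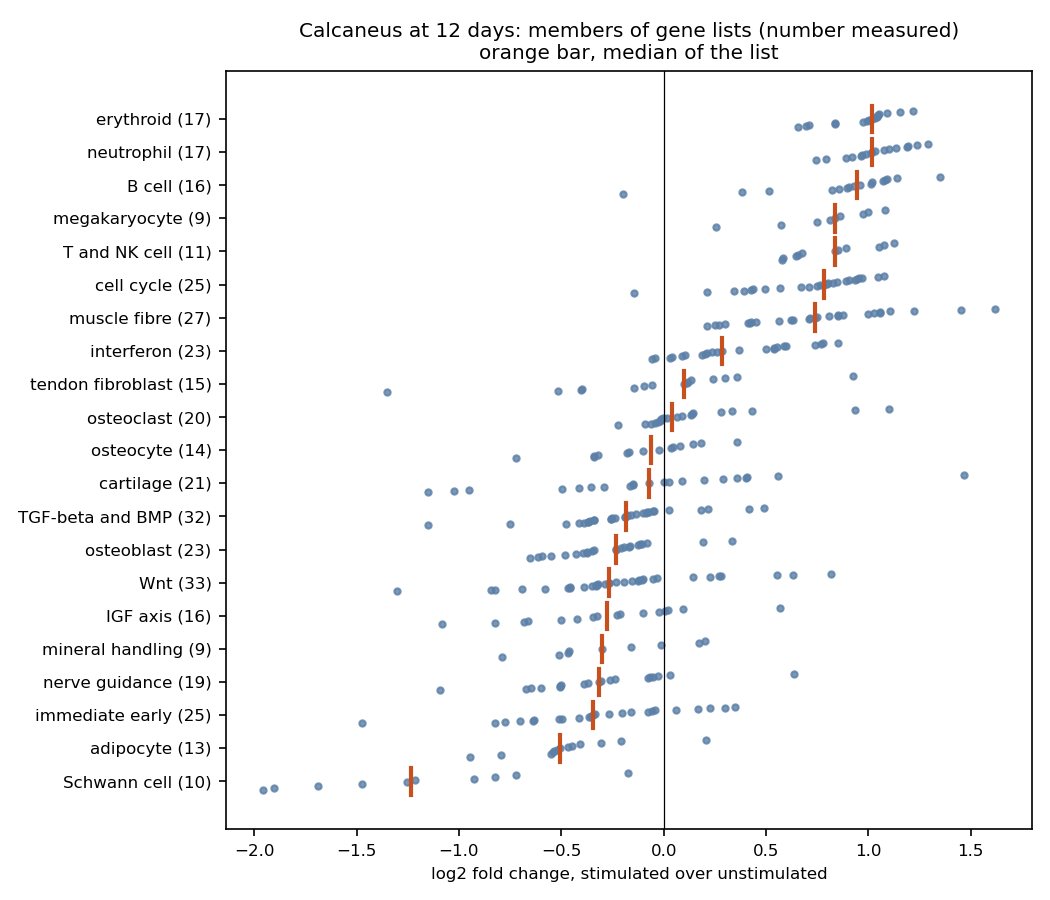
Log2 fold change, stimulated over unstimulated, of each measured member (points) of 21 of the 40 gene lists (y axis, with the number measured), with the median of each list as an orange bar. The pericyte and smooth muscle list (median −0.53) and the keratinocyte list (−1.08) are among those not drawn. Marrow, cell cycle and muscle fibre lists lie to the right of 0, and adipocyte and Schwann cell lists to the left, with osteoblast, Wnt and TGF-beta lists shifted less.

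Marrow lists had the highest medians. All 17 neutrophil genes were above 0, with a median log2 fold change of 1.02, as were all 17 measured erythroid genes (1.02), 15 of 16 B cell genes (0.95), all 9 megakaryocyte genes (0.84) and all 11 T and NK cell genes (0.84), and none was called. Mpo, the peroxidase of neutrophil granules, was at 272, 213 and 427 CPM in stimulated libraries 1, 2 and 3 and at 97.2, 178 and 111 CPM in unstimulated libraries, 1.24 ± 0.33 (SE; edgeR adjusted p 0.185). Klf1, the erythroid transcription factor, was at 12.1, 6.23 and 20.0 against 3.62, 4.77 and 8.11 CPM, with overlap. Stimulated replicate 2 was the lowest of its group for both Mpo and Klf1.

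The shares of counts showed the same libraries. Neutrophil genes took 0.612, 0.349 and 0.773% of counts in stimulated libraries 1, 2 and 3 against 0.208, 0.424 and 0.238%, and erythroid genes 1.18, 0.673 and 2.06% against 0.379, 0.722 and 0.838%. B cell genes took 0.11, 0.05 and 0.0999% against 0.0297, 0.0636 and 0.0356%. Stimulated replicate 2 lay within the unstimulated range for each, and unstimulated replicate 2 was the highest of its group for neutrophil and B cell genes. In the naive and 5-day calcaneus, erythroid genes took 1.28 to 5.12% of counts, above all 3 unstimulated 12-day libraries and stimulated replicates 1 and 2. Without stimulated replicate 2, the median log2 fold change was 1.29 for neutrophil and 1.34 for erythroid genes, and without stimulated replicate 3 it was 0.72 and 0.50, the lowest for both when 1 of the 6 libraries was left out. The B cell median was 0.62 without unstimulated replicate 1 and 1.49 without unstimulated replicate 2, and the T and NK cell and megakaryocyte medians ran from 0.56 to 1.27. With a marrow score, built from the erythroid, neutrophil and B cell lists, as a covariate, the neutrophil and erythroid medians were −0.04 and −0.20. The score averages these same genes, so medians near 0 were built in and test nothing.

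Genes of the cell cycle were above 0 in 24 of 25, with a median of 0.79 and 16 without overlap on the higher side, against 6.15% of all genes, and none was called. Top2a, the topoisomerase of dividing cells, was at 54.6, 40.3 and 72.2 CPM in stimulated and at 21.8, 32.4 and 32.3 CPM in unstimulated libraries, 0.95 ± 0.26 (SE; edgeR adjusted p 0.184). Ccnb2, a mitotic cyclin, was at 28.1, 18.3 and 32.8 against 8.51, 13.9 and 14.9 CPM, and Mcm5, a replication helicase subunit, at 47.2, 35.8 and 60.8 against 18.2, 30.8 and 28.5 CPM. In naive calcaneus Top2a was at 101 CPM and in the 5-day groups at 61.2 and 68.6 CPM (means), above both 12-day groups. Stimulated replicate 2, with the lowest marrow shares of its group, was also the lowest for these 3 genes. With a marrow score as a covariate the median of the cell cycle list was 0.09. That score moved with the groups, so the fit cannot tell marrow content apart from stimulation.

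Stromal genes of the marrow were above 0 in 9 of 10 (median 0.28). Cxcl12, the chemokine that retains blood cells in marrow, was at 1688, 1258 and 1411 CPM against 718, 1213 and 816 CPM, 0.67 ± 0.20 (SE; edgeR adjusted p 0.205), without overlap. Vcam1, an adhesion molecule of stroma and endothelium, was at 215, 184 and 288 against 91.0, 208 and 107 CPM, and unstimulated replicate 2 was the highest of its group for both.

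Muscle fibre genes were all above 0, 27 of 27, with a median of 0.74, none called and 2 without overlap (6.15% over all genes). Without stimulated replicate 3 the median was 0.33, with 4 genes below 0, and without unstimulated replicate 2 it was 0.45, with 3 below 0. Acta1 was at 2741, 5782 and 8615 CPM in stimulated and at 4165, 1881 and 4133 CPM in unstimulated libraries, 0.75 ± 1.11 (SE; edgeR adjusted p 0.803), so the groups overlapped widely. The fast-fibre gene Mybpc2 was at 61.4, 111 and 165 against 27.8, 27.9 and 54.2 CPM, 1.62 ± 0.94. The list took 1.64, 3.37 and 5.19% of counts in stimulated and 2.23, 1.14 and 2.28% in unstimulated libraries, with stimulated replicate 1 inside the unstimulated range. With a muscle score as a covariate, the medians of the osteoblast, Wnt and adipocyte lists were −0.22, −0.26 and −0.44. With the marrow score they were −0.26, −0.13 and −0.67.

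**Figure D5:**
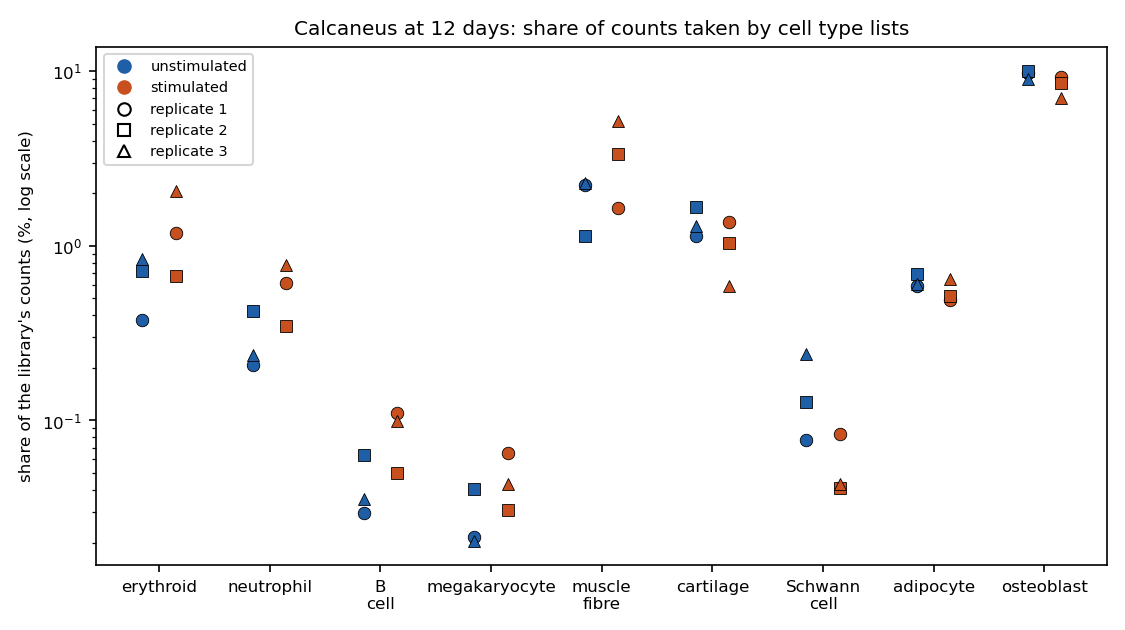
Share of each 12-day library's counts taken by gene lists (y axis, percent, log scale; x axis, list), with unstimulated libraries in blue, stimulated in orange and the replicate as the symbol. Stimulated replicates 1 and 3 lie above the unstimulated libraries for erythroid, neutrophil, B cell and megakaryocyte genes and stimulated replicate 2 does not.

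Whether the effect of stimulation differed from that at 5 days was tested by the difference of the 2 effects in the same fit, and 0 of 18851 genes were called (0%), with 2008 at an unadjusted p under 0.05. The smallest edgeR adjusted p was 0.222, for Lgr6, whose 12-day effect was 1.49 lower on the log2 scale than its 5-day effect of 0.19 ± 0.16 (SE). For Stc2 the difference was −1.11 (edgeR adjusted p 0.354) and for Vcan −0.60 (edgeR adjusted p 0.491). The 5-day effect of Vcan, −0.84, was below 0 as well but was not called (edgeR adjusted p 0.470). Notum had an effect of 0.48 at 5 days and −0.47 at 12 days, and Hey1 0.34 and −0.47 (edgeR adjusted p of the difference 0.280 for each). In the other direction, Frat2, a Wnt pathway protein, had −0.50 at 5 days and 0.57 at 12 days, Serpinb2, a plasminogen activator inhibitor, −0.77 and 0.97, and Cpeb1os1, a transcript of unknown function listed as not yet experimentally checked by GENCODE, −1.82 and 1.11. The median log2 fold change of the osteoblast list was 0.35 at 5 days and −0.23 at 12 days, of the adipocyte list 0.30 and −0.51, of the neutrophil list −0.33 and 1.02, and of the muscle fibre list −0.82 and 0.74, values set side by side without a test.

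Whether the 12-day effect differed between calcaneus and Achilles tendon was tested in a fit over both tissues, and 44 of 19845 genes (0.222%) were called, 9 with a higher effect in bone and 35 with a lower one. None of the 7 genes called in bone was among them, and Stc2 came nearest, at −1.08 in bone and 0.39 in tendon (difference −1.43 ± 0.32, SE; edgeR adjusted p 0.0644). Muscle fibre genes took 22.3 to 25.3% of counts in the stimulated and 24.5 to 25.9% in the unstimulated 12-day tendon libraries. Tendon fibroblast genes took 0.1425 to 0.356% and 0.187 to 0.356% there, against 0.928 to 2.05% and 1.38 to 1.98% in calcaneus. The tendon samples thus held much muscle RNA, and whether tendon cells or muscle carried the tendon effects was not tested. The genes named for this test had an effect called in the tendon libraries, with Gabrr2 and Lmnb1 as exceptions, and none had one called in bone. The largest difference below 0 was that of Notum, which stood at 10.5 ± 1.3 CPM in stimulated and 14.5 ± 0.47 CPM in unstimulated calcaneus (SD, n = 3) and at 1.56 ± 0.76 and 0.217 ± 0.13 CPM in tendon, with a difference of −3.20 ± 0.41 (SE; edgeR adjusted p 0.00166). The largest above 0 was that of Irx5, an osteocyte-list transcription factor, at 11.5 ± 3.55 and 12.4 ± 1.31 CPM in calcaneus and 0.117 ± 0.06 and 2.57 ± 1.19 CPM in tendon, with a difference of 4.42 ± 0.65 (SE; edgeR adjusted p 0.00272). Leaving out 1 tendon library moved the count of 44 between 9 (without unstimulated replicate 3) and 356 (without stimulated replicate 2), and leaving out 1 of the 6 calcaneus libraries moved it between 19 (without stimulated replicate 3) and 76 (without stimulated replicate 2).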

How the data were processed

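The data are poly-A RNA sequencing libraries of mouse calcaneus. Per the submitters' processing notes, cutadapt 2.3, FastQC 0.11.8, MultiQC 1.7, STAR 2.7.8a and RSEM 1.3.3 were used with GRCm38. The deposited values are expected counts from RSEM, 1 per gene and sample, which divide reads shared by similar genes by an estimate, and the strand setting is not given in the sources used here. All deposited values were whole numbers, so rounding changed 0 of them. Of 55426 rows, 55240 (99.7%) were matched by ID to GENCODE M21, and 5 were transgene rows.

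The test was edgeR 4.0.16 (R 4.3.3) with TMM factors, the filterByExpr filter (minimum count 10, minimum total 15), a robust quasi-likelihood fit over 14 bone libraries and Benjamini-Hochberg adjustment over all genes tested, threshold 0.05. The tissue comparison used 29 libraries. The first 2 samples of the unstimulated 5-day bone group were summed, because their median absolute log2 difference was 0.0863 against at least 0.161 in every other pair of a bone group. The ± of a log2 fold change gives its standard error. Levels are CPM over the TMM-scaled total, except those of EYFP, which are over the unscaled total of each library. Since the labels do not tie replicates to separate animals, the p-values cover only the spread between samples, which could be technical. Replicate numbers are shared between groups, but same-numbered 12-day samples did not deviate together (r from −0.158 to 0.164), and no block was fitted in the main analysis. Marker genes of sex did not differ between bone libraries.

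The named genes were up to 12 called genes a direction with the largest change, no overlap between groups and a mean of at least 1 CPM, filled to 10 by smallest p, 8 fixed bone and muscle genes, up to 4 genes of each of 40 lists by smallest p, and 5 genes a direction (3 where none was called) of each difference between effects. The comparison, the lists and the genes were chosen with earlier results of these data known. Counts of 18851 genes were also simulated, independently for each gene, around its mean level and with the spread estimated from the bone libraries. On them the test recovered 10% of genes changed 1.5-fold, 46% at 2-fold, 76% at 3-fold and 82% at 4-fold, with 3 false calls of 110. No shift of marrow or muscle genes shared within a library was simulated, so these rates may not hold for the real libraries. Alternatives were other scaling, filters and tools (DESeq2 1.42.0, limma 3.58.1), a replicate block, other sets of libraries, a muscle or marrow score as a covariate and each library left out in turn.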

Additional observations from a re-analysis of the deposited data

Results flagged for a closer look

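The effect of 12 days of stimulation differed between calcaneus and Achilles tendon for 44 genes by a test of the difference itself (edgeR over both tissues, adjusted p under 0.05). Of those named, the effect in bone minus the effect in tendon was 4.42 on the log2 scale for Irx5, 3.61 for Zan, 3.08 for Gabrr2, 1.42 for Lmnb1 and 1.20 for Tiam1. It was −3.20 for Notum, −3.18 for Sstr2, −2.47 for Msi1, −2.28 for Hbegf and −2.26 for Baiap2. In calcaneus none of these 10 genes was called, with log2 fold changes from −0.71 (Hbegf) to 1.72 (Gabrr2). In tendon, Hbegf, an EGF-family growth factor, had a log2 fold change of 1.61 ± 0.32, Baiap2 1.75 ± 0.29, Msi1 2.36 ± 0.37 and Sstr2 2.7 ± 0.50 (SE), while Tiam1, an exchange factor for Rac, had −0.92 ± 0.16. Zan and Gabrr2 were weakly expressed in calcaneus, at 0.409 and 0.643 CPM in the stimulated and 0.169 and 0.199 CPM in the unstimulated group. In the tendon libraries, muscle fibre genes took 22.3 to 25.3% of counts with stimulation and 24.5 to 25.9% without it. Whether tendon cells or muscle carried the tendon effects was not tested.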

How the results depend on the processing

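The count of 7 genes called at 12 days was 1 with DESeq2's size factors, 32 (3 higher, 29 lower) with no filter on low counts, 11 with the near-identical pair kept apart, 10 with limma-voom, 427 (183 higher, 244 lower) with DESeq2, 0 with only the 6 libraries compared, 1 without the naive group, 1 with a muscle score and 0 with a marrow score as a covariate, and 0 to 7 when 1 of the 6 libraries was left out. Chosen after seeing the data, a fit over both tissues gave 0 and leaving out naive replicate 3 gave 1. With the replicate number as a block the count was 0, with 2564 genes at an unadjusted p under 0.05. With that block the tissue comparison called 31 genes and the day comparison 0. Same-numbered 12-day samples did not deviate together, but 3 samples a group are too few to exclude that the numbers pair them. In the main fit 6 of the 7 genes had an adjusted p of 0.0419. The cause of each change was not tested. The day comparison, 0 genes, gave 1 with no filter, 1 with the pair kept apart, 0 to 1 without 1 of the 12-day libraries, and 0 to 3 without 1 of the 5-day libraries (3 without unstimulated replicate 3). The tissue comparison, 44 genes, gave 19 to 76 without 1 of the 12-day calcaneus libraries and 9 to 356 without 1 of the 12-day tendon libraries.

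Of the named values that changed sign, Car2, Acta1, Epor, Itgb3 and Tiam1 had log2 fold changes of 0.94, 0.75, 0.65, 0.43 and 0.24 in the fit reported. Acp5 ran from −0.33 to 0.17 over the settings, with 0.17 by limma-voom, 0.0271 with the muscle score and 0.0114 in the fit over both tissues. Irx5 was 0.0171 by limma-voom, and Acta1 −0.00651 with the muscle score, which is built from its own list. With the marrow score, Tiam1 was −0.0920, Epor −0.0348, Itgb3 −0.000450, Car2 −0.202 and Dmp1 −0.0217. Leaving out 1 library, Ctsk ran from −0.26 to 0.32, Dmp1 from −0.16 to 0.16, Irx5 from −0.37 to 0.0744 and Acp5 from −0.33 to 0.12. Of all the values recomputed, 2027 kept direction and side of the threshold, 88 lost it, 74 gained it and 16 changed sign. Only genes called in the fit reported could lose it, so the 88 were all theirs. Most of the 2027 were values of genes not called there, and do not show that the calls held. Of the called genes, Lgr6 stayed called in 11 of 18 other settings, and Stc2, Vcan, Ano1 and Sdk2 in 5 of 18 each. Atp2b4 stayed called in 4 of 18 and Chit1 in 2 of 17. Chit1 rests on 10 counts in each stimulated library.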

Other observations

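Other gene groups of the 12-day comparison were not called and are given as values. Of 23 interferon-stimulated genes, 21 were above 0 (median log2 fold change 0.29). Ifi47, an interferon-inducible GTPase, was at 30.3, 16.8 and 25.2 CPM in stimulated and at 10.6, 18.7 and 10.5 CPM in unstimulated libraries, and Zbp1, a sensor of Z-form nucleic acids, at 14.3, 9.90 and 10.6 against 5.08, 8.90 and 6.32 CPM. In both, stimulated replicate 2 was the lowest and unstimulated replicate 2 the highest of its group, as for the neutrophil genes. Of 25 nuclear genes of the respiratory chain, 22 were above 0, with a median of 0.12.

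Immediate early genes were below 0 in 20 of 25 (median −0.35), with Klf4, a zinc finger transcription factor, at 81.6, 97.7 and 62.6 against 169, 119 and 125 CPM (edgeR adjusted p 0.1). Their median ran from −0.42 to 0.10 over the other settings. Collagen genes were below 0 in 19 of 22 (median −0.16) and genes that process collagen in 17 of 22 (median −0.20). P4ha2, a collagen prolyl hydroxylase subunit, was at 61.7, 61.4 and 48.7 against 91.5, 75.1 and 76.5 CPM, and Timp3, a matrix-bound protease inhibitor, at 295, 299 and 266 against 380, 450 and 436 CPM. Genes of mechanosensing were below 0 in 13 of 17 (median −0.20), with Pkd1, which encodes polycystin, at 227, 296 and 212 against 328, 346 and 390 CPM, and 14 of 18 targets of YAP were below 0 (median −0.10). The medians of the collagen, YAP target and respiratory chain lists changed sign among the other settings, running from −0.43 to 0.13, −0.24 to 0.03 and −0.01 to 0.30. Circadian genes were below 0 in 15 of 19 (median −0.17), and the labels used here give no time of day. Keratinocyte genes, which mark skin, were below 0 in 8 of 9 measured (median −1.08) at 0.0018 to 0.0033% of counts. Pericyte and smooth muscle genes were all 9 below 0 (median −0.53), with 1 without overlap on the lower side (10% over all genes) and none called. Their median ran from −0.74 to −0.22 over the other settings. The list took 0.0895, 0.147 and 0.0820% of counts in stimulated and 0.116, 0.145 and 0.230% in unstimulated libraries, so the groups overlapped.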
